A study of Mus musculus with 16 samples.

Results

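The genes examined here encode the proteasome, its activators, its inhibitor and its assembly factors in mouse embryonic stem (ES) cells. They were taken by symbol: Psma to Psmg followed by a digit, without the immunoproteasome genes Psmb8, Psmb9 and Psmb10 and without names marked as pseudogenes. The rule gave 47 genes of 24320 named genes in the Pml table and of 24394 in each of the other tables. There were 16 core genes (8 Psma and 8 Psmb), 26 regulatory genes (Psmc, Psmd and Psme) and 5 others (Psmf1 and Psmg1 to Psmg4). The pattern also took Psmc3ip, which encodes a meiotic recombination factor and not a proteasome subunit.

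The proteasome is the main protease of the cytosol and nucleus. Its core particle is a stack of alpha and beta rings, and the beta subunits Psmb5, Psmb6 and Psmb7 hold the cutting sites. The regulatory particle binds ubiquitinated proteins, and its ring of Psmc ATPases unfolds them and feeds them into the core. Psme proteins are alternative activators that cap the core without binding ubiquitin. When proteasome activity is short, the transcription factor NRF1 (Nfe2l1) is known to raise subunit genes through antioxidant response elements, and NRF2 (Nfe2l2) uses related elements under oxidative stress.

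RNA-seq libraries came from the ES cell line E14Tg2a.IV, strain C57BL/6 per the labels, grown without feeders in medium with LIF; the growth text also names the CCE line. The 16 libraries formed 8 groups of 2 in 3 separately scaled tables. The Pml table held untreated Pml knockout cells and untreated wild-type cells. The arsenite table held wild-type cells given 200 µM sodium arsenite, which damages proteins and causes oxidative stress, for 2 h and untreated wild-type cells. The Trim33 table held Trim33 knockout and wild-type cells given activin A (50 ng/ml), a ligand of the SMAD2 and SMAD3 pathway, and cells of both labels given SB431542 (10 µM), an inhibitor of its receptors, each for 2 h. The labels name no separate cultures or clones. A p-value here therefore reflects the scatter between libraries of a group, and that scatter may be technical. In such bulk samples, fewer cells of a type and less RNA per cell cannot be told apart.

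The targeted genes were read first. Pml stood at 32.0 and 33.5 FPKM in knockout libraries and at 49.9 and 45.1 FPKM in wild type, so it was reduced and not lost. Trim33 stood at 2.53 and 2.79 RPKM in knockout and at 20.1 and 23.5 RPKM in wild-type libraries with activin A. It went against the labels with SB431542: 18.3 and 24.6 RPKM in the libraries labelled knockout, against 2.94 and 2.45 RPKM in those labelled wild type. These libraries are called by their labels, and every direction drawn from them rests on a label that Trim33 contradicts. Eif2s3y, a Y-linked gene, split the libraries as Trim33 did. With activin A it had 0.0651 and 0 RPKM in knockout and 38.3 and 41.0 RPKM in wild-type libraries. With SB431542 it had 40.0 and 38.55 RPKM in libraries labelled knockout, against 0.143 and 0.0647 RPKM in those labelled wild type. Another difference between the cell populations and the Trim33 knockout therefore cannot be told apart. Depth recovered from the values was about 46700000 to 48600000 reads in the arsenite table and about 31300000 to 39400000 reads in the Trim33 table; in the Pml table it could not be recovered. The ES cell markers Pou5f1, Nanog, Sox2 and Zfp42 were present in all libraries, and the 5 blood cell markers summed to at most 2.56 in any library.

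Of 4 genes that the arsenite results turn on, 2 held a match to the antioxidant response element core before the start. No binding to it was measured. The sequences just before the start sites of all 4 are shown. They are the 120 bases before the start in RefSeq's annotation of GRCm38.p6, written along the gene's strand. Capitals mark the antioxidant response element core, TGACNNNGC. Psmb5 is at chr14:54617996-54618115 on the minus strand and Psmb6 at chr11:70525237-70525356 on the plus strand. Psmg4 is at chr13:34162844-34162963 on the plus strand and Psmd5 at chr2:34870963-34871082 on the minus strand.
Psmb5: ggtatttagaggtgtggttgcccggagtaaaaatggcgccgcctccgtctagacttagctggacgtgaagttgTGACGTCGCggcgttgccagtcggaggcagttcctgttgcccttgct
Psmb6: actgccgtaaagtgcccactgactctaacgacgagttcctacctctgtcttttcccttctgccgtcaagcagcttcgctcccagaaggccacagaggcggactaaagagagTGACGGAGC
Psmg4: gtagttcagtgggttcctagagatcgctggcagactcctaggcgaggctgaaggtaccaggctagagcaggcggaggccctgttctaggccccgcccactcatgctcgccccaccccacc
Psmd5: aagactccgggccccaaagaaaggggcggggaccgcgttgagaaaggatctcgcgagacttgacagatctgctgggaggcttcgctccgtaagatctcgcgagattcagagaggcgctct

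The match began 47 bases before the start of Psmb5 and 9 bases before the start of Psmb6. The Psmg4 and Psmd5 sequences held no match in the whole window searched, from 250 bases before to 50 bases after the start, on either strand. RefSeq promoters were matched for 39 of the 47 genes. The element core was found in 6 of them, or 15.4% (Psmb5, Psmb6, Psmc6, Psmd9, Psmd12 and Psme4), against 14% of 27025 genes. The CCAAT box, the binding motif of NF-Y, was found in 14 of them, or 35.9%, against 41.1% of all genes. The 2 motif shares among proteasome genes were thus near those of all genes. The 47 genes lie on 16 chromosomes, 10 of them on chromosome 11.

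Proteasome genes were among the more abundant messages. In untreated cells of the arsenite comparison, 23 of the 47 exceeded 100 RPKM, as did 2.92% of all genes, and the median member stood at percentile 97.1 of all genes. Per unit length, beta-ring genes had the highest median level (147 RPKM), followed by the ATPases (123 RPKM), the non-ATPase subunits (109.8 RPKM) and the alpha ring (101 RPKM). The core assembly chaperones had a median of 32.7 RPKM and the activators 35.6 RPKM. The inhibitor Psmf1 stood at 10.5 RPKM. The most abundant members were Psmb4 (260 and 251 RPKM), Psmb7 (248 and 254 RPKM) and Psmb6 (235 and 232 RPKM). Psmb4 and Psmb7 overlapped, and Psmb6 lay below both. At the other end, Psma8, the testis form of an alpha subunit, had 9.21 and 9.30 RPKM. Psmb11, the thymus beta subunit, was at most 0.0492 in any of the 16 libraries. Psmb11 was the only member under the filter on low values (a value of 1 or more in 2 or more libraries), so 46 of 47 were tested in each table.

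In the unscaled values, arsenite moved single proteasome genes in both directions while the median member stayed near zero. That median depended on the scaling. With TMM scaling the core median was -0.187 and the regulatory median -0.184, with 7 members called higher and 30 lower. With quantile normalization these medians were 0.109 and 0.024, with 18 members higher and 14 lower. Of 46 members, 14 rose and 15 fell after 2 h (limma on log2(value + 1), Benjamini-Hochberg over all 12136 genes tested, adjusted p under 0.05), which is 29 of 46 against 67.7% of all genes. Among all genes 40.7% were higher and 27% lower, so the share of members called was near that of all genes. The groups did not overlap for 38 of the 46 members, against 84.5% of all genes. The median log2 fold change was -0.02 for the members and 0.08 for all genes. The members' sum was 0.979% and 0.963% of all values in arsenite libraries, against 0.941% and 0.943% in untreated libraries.

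**Figure D1:**
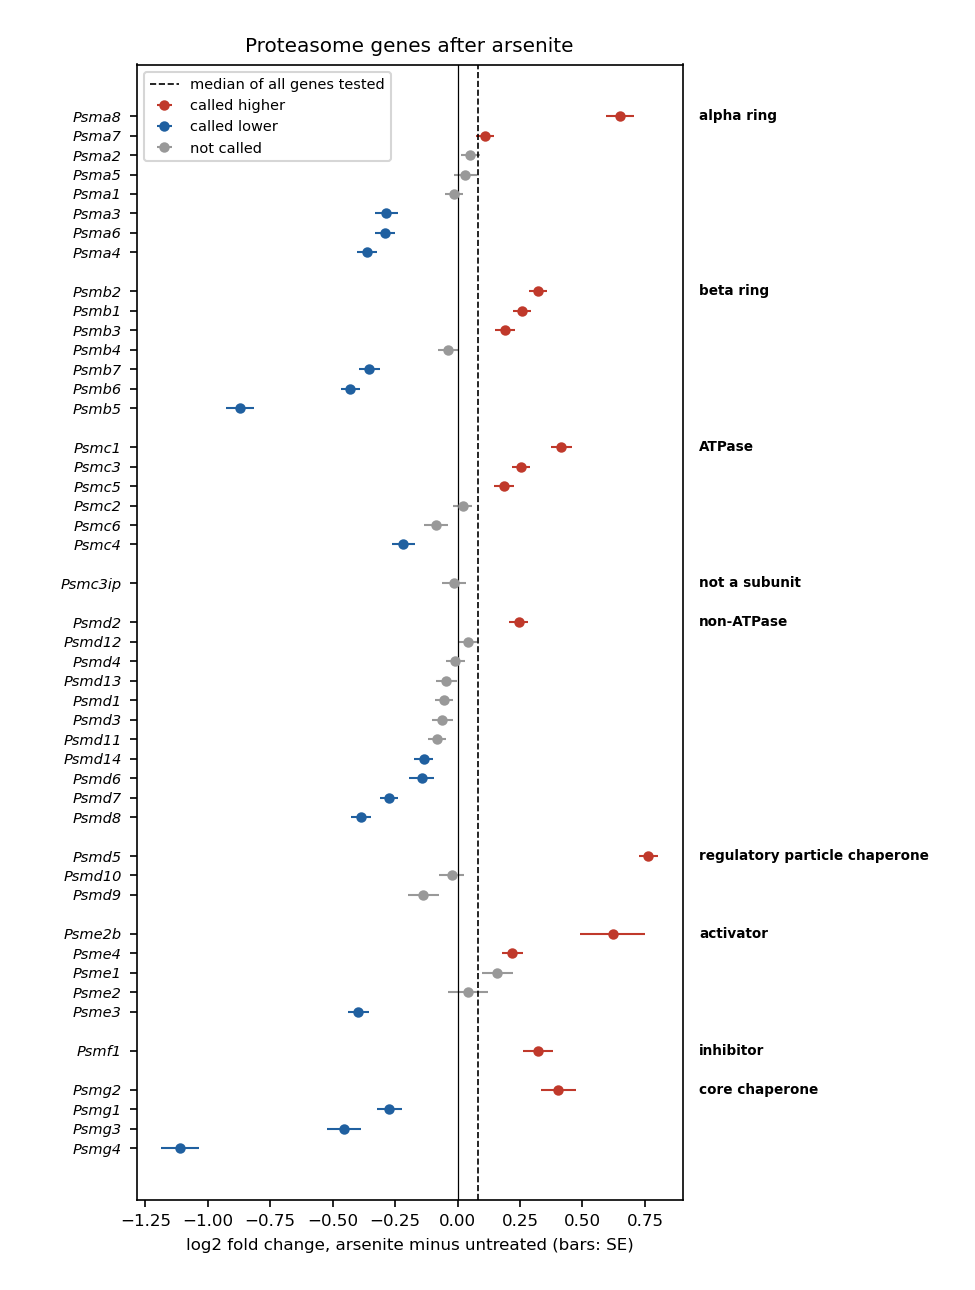
Each point is the log2 fold change of 1 proteasome gene, arsenite minus untreated, with its standard error, ordered within each class. Red points were called higher (14), blue points lower (15) and grey points neither. Psmg4 and Psmb5 lie farthest to the left and Psmd5 farthest to the right, and the dashed line is the median of all genes at 0.08.

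All 3 catalytic subunits fell. Psmb5, the chymotrypsin-like subunit, stood at 80.4 and 71.8 RPKM in arsenite libraries and at 137 and 143 RPKM in untreated libraries. The highest arsenite value was below the lowest untreated one, and the log2 fold change was -0.87 ± 0.06 (SE, limma adjusted p = 1.08e-05). Psmb6, the caspase-like subunit, stood at 177 and 169 RPKM with arsenite and at 235 and 232 RPKM without it (-0.43 ± 0.04, adjusted p = 5.29e-05 in limma). Psmb7, the trypsin-like subunit, stood at 202 and 191 RPKM with arsenite and at 248 and 254 RPKM without it (-0.35 ± 0.04, adjusted p = 0.000187 in limma). Groups did not overlap for any of the 3.

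Some reads of these genes can be shared with other genes. Psmb5 lies on chromosome 14 at positions 54614119 to 54618022 of the minus strand (GENCODE, GRCm38), with 3 exons in its longest transcript. Of its 50-base words, 57.06% also occur in other genes, most of them in Gm3375. For Psmb7 the share was 28.08%, all of it with Nek6 on the opposite strand, and for Psmb6 it was 2.67%. In all, 17 of the 47 members shared over 5% of their words.

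Of the 4 tested non-catalytic beta subunits, 3 were called higher. Psmb2 rose to 109 and 108 RPKM in arsenite libraries, against 87.8 and 85.8 RPKM in untreated libraries (0.32 ± 0.04, adjusted p = 0.000163 in limma). Psmb1 rose by 0.26 ± 0.04 and Psmb3 by 0.19 ± 0.04 on the log2 scale, but neither call held with TMM-scaled values. Psmb4 stood at 253 and 244 RPKM with arsenite and at 260 and 251 RPKM without it, overlapping groups that did not pass.

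Among the alpha subunits, which form the gated outer rings, 3 of the 8 fell and 2 rose. Psma4 stood at 88.4 and 84.3 RPKM in arsenite and at 112 and 110.2 RPKM in untreated libraries (-0.36 ± 0.04, adjusted p = 0.000137 in limma). Psma6 fell by 0.29 and Psma3 by 0.28 on the log2 scale. Psma8 rose to 15.1 RPKM in both arsenite libraries, against 9.21 and 9.30 RPKM in untreated libraries (0.65 ± 0.06, adjusted p = 4.36e-05 in limma). Psma7 was called higher by 0.11 ± 0.04, and with TMM-scaled values it turned to -0.06 (adjusted p = 0.209); the call was also lost without the first arsenite library or either untreated one. Psma1, Psma2 and Psma5 lay between -0.02 and 0.05 and did not pass.

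**Figure D2:**
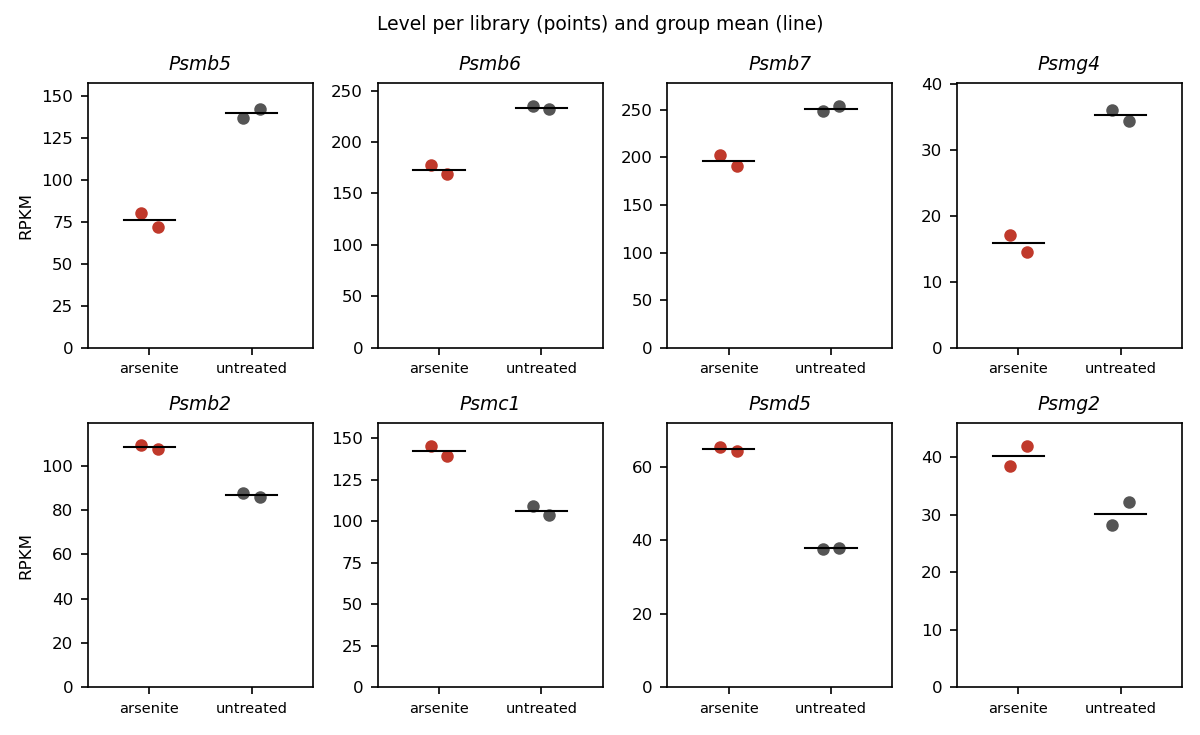
RPKM of 8 proteasome genes in each arsenite library (red) and each untreated library (grey), with the group mean as a line; every axis starts at 0. Groups do not overlap in any panel, with Psmb5, Psmb6, Psmb7 and Psmg4 lower in arsenite libraries and Psmb2, Psmc1, Psmd5 and Psmg2 higher.

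In the regulatory class 7 of 26 genes rose and 6 fell. The ATPase Psmc1 rose to 145 and 139 RPKM in arsenite libraries, against 109 and 104 RPKM in untreated libraries (0.41 ± 0.04, adjusted p = 9.95e-05 in limma), and 17.57% of its words occur elsewhere. The ATPases Psmc3 and Psmc5 rose by 0.26 and 0.18, calls that were lost with TMM-scaled values, and Psmc4 fell by 0.22. Of the 11 non-ATPase subunits, some of which recognise or deubiquitinate substrates, 4 fell and 1 rose. Psmd8 had 96.6 and 91.3 RPKM with arsenite and 123 RPKM in both untreated libraries (-0.39 ± 0.04, adjusted p = 0.00011 in limma). Psmd7, the partner of the deubiquitinase Psmd14, had 91.8 and 89.2 RPKM with arsenite and 109.9 and 109.7 RPKM without it (-0.28 ± 0.04, adjusted p = 0.000363 in limma). Psmd14 and Psmd6 fell by 0.14 each, calls lost with quantile normalization and without the second arsenite or the second untreated library, and for Psmd6 also without the filter. Psmd2, a ubiquitin-receptor scaffold, rose by 0.24, a call lost with TMM-scaled values.

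Assembly factors held the largest movements in both directions. Psmd5, a chaperone of the ATPase ring, rose to 65.3 and 64.5 RPKM in arsenite libraries, against 37.8 and 37.9 RPKM in untreated libraries (0.76 ± 0.04, adjusted p = 3.1e-06 in limma). Psmd9 and Psmd10, the other regulatory-particle chaperones, had log2 fold changes of -0.14 ± 0.06 and -0.02 ± 0.05 and did not pass. Psmg4, a chaperone of the alpha ring, had 17.1 and 14.5 RPKM with arsenite and 36.1 and 34.5 RPKM without it (-1.11 ± 0.08, adjusted p = 1.33e-05 in limma). Its partner Psmg3 fell by 0.45 ± 0.07, while Psmg1 and Psmg2, which act as a pair, moved apart: Psmg1 by -0.27 ± 0.05 and Psmg2 by 0.40 ± 0.07. Psmg2 had 38.5 and 41.9 RPKM with arsenite and 28.2 and 32.2 RPKM without it (adjusted p = 0.0016 in limma). Of the words of Psmd5 0.64% and none of those of Psmg4 and Psmg2 occurred in other genes.

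The alternative caps and the inhibitor were also split. Psme3, the nuclear activator, had 67.6 and 64.7 RPKM with arsenite and 88.7 and 86.0 RPKM without it (-0.40 ± 0.04, adjusted p = 0.000101 in limma). Psme4 rose by 0.22 ± 0.04, a call lost with TMM-scaled values, and the inhibitor Psmf1 rose by 0.32 ± 0.06. Psme2b was called higher by 0.62 ± 0.13, but 68.65% of its words also occur in Psme2. Summed, the 2 genes had 28.0 and 27.9 RPKM with arsenite and 21.8 and 22.9 RPKM without it (0.31 ± 0.05, adjusted p = 0.000757 in limma).

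Lists of genes around the proteasome held as many rises as falls or more. They were not refitted with TMM scaling. Beside these counts, 67.7% of all genes tested were called after arsenite, 40.7% higher and 27% lower. Of 13 genes of the segregase Vcp and its cofactors, which extract ubiquitinated proteins, 8 rose and 1 fell, with Vcp at 0.53 ± 0.05 and Ubxn1 at 0.45 ± 0.04. Of 15 proteasome-bound factors 4 rose and 4 fell: the arsenite-inducible Zfand2a had 0.56 ± 0.07 and the shuttle factor Ubqln4 -0.61 ± 0.04. Of 9 NRF2 targets 8 rose, with Nqo1 at 2.55 ± 0.06 and Gclm at 1.91 ± 0.06. Among 11 genes of the NRF1 pathway and proteasome transcription factors 6 rose and 4 fell: Nfe2l1 had -0.59 ± 0.04 and the NF-Y subunit Nfyb -1.01 ± 0.04, while Keap1 had 0.69 ± 0.06. In the same libraries the 8 ES cell markers all fell, their sum being 2384 to 2469 RPKM with arsenite and 5051 to 5116 RPKM without it. The 5 tested trophectoderm markers all rose, with sums of 118 to 121 RPKM with arsenite and 36.3 to 36.7 RPKM without it. The rise was not particular to that list. Of 5 tested fibroblast markers 4 rose and 1 fell, 3 of 4 tested primitive endoderm markers rose, and so did the 1 tested blood cell marker. The part of these marker changes in the proteasome results was not tested.

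The direction of small changes depended on the scaling. TMM scaling moved the median of all genes to -0.07, took the share of higher genes among all called genes to 40.7% (against 60.1% unscaled) and put the members' median at -0.19, with 7 members called higher and 30 lower. Under every other processing tried, 20 of the 29 calls held: Psma8, Psmb2, Psmc1, Psmd5, Psme2b, Psmf1 and Psmg2 higher, and 13 lower, Psmb5, Psmb6, Psmb7, Psmd8, Psme3 and Psmg4 among them.

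In Pml knockout cells the calls among proteasome genes were few and, except for Psme2 (0.64) and Psme2b (0.78), small. With all 4 libraries none was a core particle gene. Of 46 members 3 rose and 8 fell, against 35.5% of all 11648 genes called in either direction (16.6% higher, 18.9% lower). The groups did not overlap for 31 of the 46, against 69.4% of all genes. None of the 15 tested core genes passed in limma, and none had an unadjusted p under 0.05. Their log2 fold changes lay between -0.19 (Psma8) and 0.16 (Psma6). Core calls appeared when a wild-type library was left out: 2 lower without the first and 3 higher without the second. The catalytic subunit Psmb5 had 249 and 229.7 FPKM in knockout and 246 and 252 FPKM in wild-type libraries.

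The 3 members that rose are the subunits and a near-identical copy of the interferon-inducible activator. Psme1 had 77.9 and 80.2 FPKM in knockout and 68.1 and 68.4 FPKM in wild-type libraries (0.21 ± 0.05, adjusted p = 0.0111 in limma). Psme2 and Psme2b could not be separated well: in wild type Psme2 had 34.0 and 20.7 FPKM and Psme2b 14.2 and 29.1 FPKM, in opposite order. In knockout libraries Psme2 had 46.3 and 37.8 FPKM and Psme2b 32.1 and 39.5 FPKM. Their sum was 78.3 and 77.3 FPKM in knockout, against 48.1 and 49.8 FPKM in wild type, groups that did not overlap (0.66 ± 0.05, adjusted p = 3.03e-05 in limma). Psme2 alone gave 0.64 ± 0.19 and Psme2b 0.78 ± 0.26. Psme1 and Psme2 are neighbours on chromosome 14, at positions 55578123 to 55581529 and 55587441 to 55591113.

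**Figure D3:**
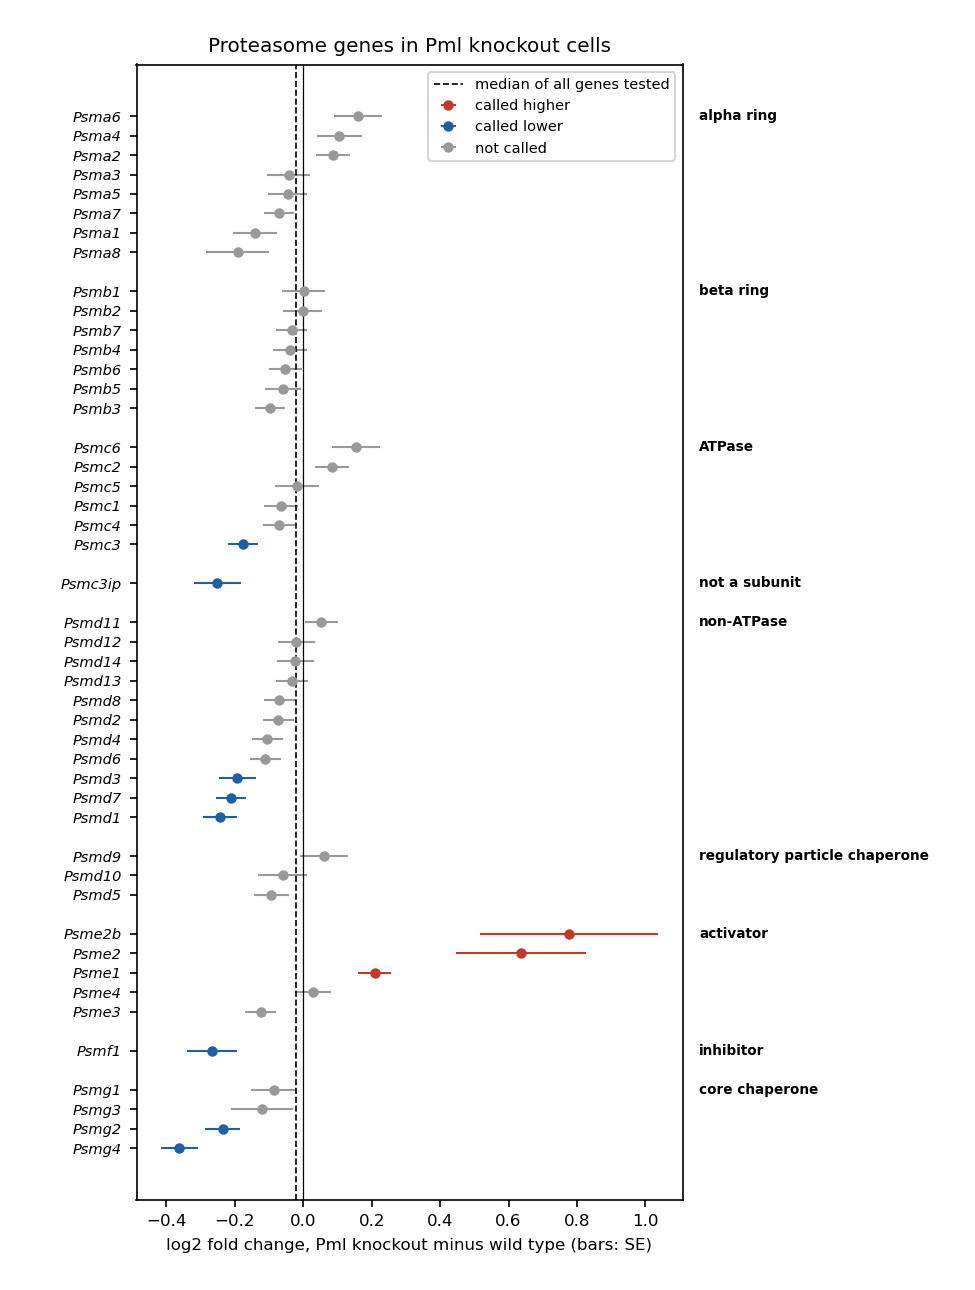
Each point is the log2 fold change of 1 proteasome gene, Pml knockout minus wild type, with its standard error, ordered within each class. No alpha-ring or beta-ring gene was called; Psme1, Psme2 and Psme2b were called higher (red) and 8 genes lower (blue). The dashed line is the median of all genes at -0.02.

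The immunoproteasome genes, which the symbol rule leaves out, were read beside them. Psmb8 had 9.33 and 5.0 FPKM in knockout and 0.935 and 0.672 FPKM in wild-type libraries (2.13 ± 0.22, adjusted p = 0.000181 in limma). Psmb10 had 25.2 and 24.2 FPKM in knockout and 20.4 FPKM in both wild-type libraries (0.26 ± 0.06). Psmb9 did not pass, with 3.88 and 3.33 FPKM in knockout and 2.89 and 3.48 FPKM in wild type. In the arsenite table Psmb8 was at most 0.101 RPKM in any library.

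Of the members that fell, Psmg4 changed most, with 83.9 and 78.0 FPKM in knockout and 103 and 105 FPKM in wild-type libraries (-0.36 ± 0.05, adjusted p = 0.00117 in limma). Psmg2 had 61.3 and 62.8 FPKM in knockout and 71.2 and 75.3 FPKM in wild type (-0.24 ± 0.05, adjusted p = 0.00917 in limma). Psmd1, the largest subunit of the base, had 125 and 129.5 FPKM in knockout and 147 and 155 FPKM in wild type (-0.24 ± 0.05, adjusted p = 0.00565 in limma). Psmd7 fell by 0.21, Psmd3 by 0.19, Psmc3 by 0.18, Psmf1 by 0.27 and Psmc3ip by 0.25. Of the 11 calls, those of Psmg4, Psmg2 and Psmd1 held under every other processing tried. The Psme2b call was lost without the first wild-type library, with TMM or quantile scaling, with a pseudocount of 0.1 and without the filter on low values. The Psme2 call was lost without the second wild-type library and without that filter, and the Psme1 call was lost without the second knockout library.

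Other genes also differed between these libraries. Eif2s3y, a Y-linked gene, had 1.10 and 0.753 FPKM in knockout and 16.2 and 20.6 FPKM in wild-type libraries, so another difference between the 2 cell populations and the Pml knockout cannot be told apart. The 6 tested trophectoderm markers rose, their list summing to 682 to 694 FPKM in knockout and 35.8 to 38.6 FPKM in wild type. Of 8 fibroblast markers 7 rose and 1 fell, with sums of 536 to 566 FPKM in knockout and 107 to 108 FPKM in wild type. Their part in the rise of Psme1 and Psme2 was not tested. Of 9 NRF2 targets 8 fell, Hmox1 among them (-0.66 ± 0.06), and Nfe2l1 itself had -0.25 ± 0.05. Of all genes tested in this comparison, 16.6% were called higher and 18.9% lower.

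In the Trim33 table replicates lay farther apart, and few members passed. The median standard error over members was 0.15 on the log2 scale for either genotype contrast, against 0.04 in the arsenite table. With activin A, 1 of 46 members was called, against 9.43% of all 11914 genes (6.61% higher, 2.82% lower), and the groups did not overlap for 18 members, against 60.7% of all genes. With SB431542, again 1 of 46 was called, against 9.56% of all genes (3.01% higher, 6.55% lower), and the groups did not overlap for 15 members, against 49.2% of all genes. At an unadjusted p under 0.05 there were 7 members with activin A (15.2%, against 26% of all genes) and 9 with SB431542 (19.6%, against 25.9%). Activin A against SB431542, averaged over both genotype labels, called none of 46 members in limma (1 at an unadjusted p under 0.05), against 0.109% of all genes; groups did not overlap for 1 member, against 1.38% of all genes. The test of the difference between both genotype contrasts called 5 members higher and 3 lower, against 26.3% of all genes in either direction (16.1% higher, 10.1% lower). It sets the libraries with low Trim33 (knockout with activin A, labelled wild type with SB431542) against those with high Trim33. Taken by Trim33 level, it therefore adds the contrasts of both treatments and is not a difference between them.

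Psma8 was the called gene in both genotype contrasts. It had 13.2 and 10.5 RPKM in knockout and 5.64 and 3.98 RPKM in wild-type libraries with activin A (1.15 ± 0.22, adjusted p = 0.0159 in limma). With SB431542 it had 6.49 and 4.35 RPKM in libraries labelled knockout and 11.6 and 12.4 RPKM in those labelled wild type (-1.04 ± 0.22, adjusted p = 0.021 in limma). The groups did not overlap in either contrast. High Psma8 was thus found in the knockout libraries with activin A and in the SB431542 libraries labelled wild type, the ones in which Trim33 was under 3 RPKM. Of 8 ES cell markers, the difference between both genotype contrasts was called higher for 2 (Zfp42, 2.36 ± 0.28, and Nanog, 2.25 ± 0.43) and lower for 2 (Klf4, -1.23 ± 0.32, and Tdgf1, -0.91 ± 0.19), with a median of -0.11 over the list. Their part in the Psma8 result was not tested. The first Psma8 call was lost without the first knockout or the second wild-type library. The second was lost without either library labelled wild type or the second labelled knockout, and also without the filter on low values.

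**Figure D4:**
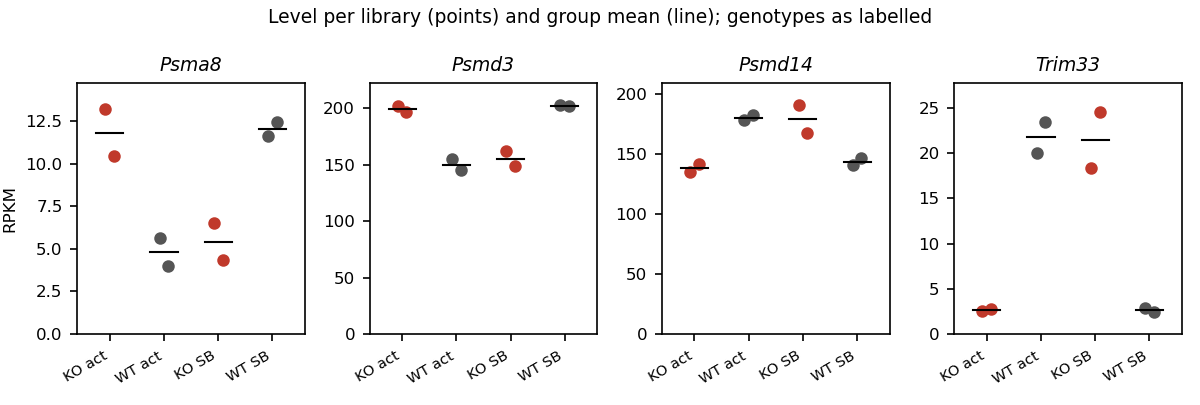
RPKM of Psma8, Psmd3, Psmd14 and Trim33 in each of the 8 libraries, with genotypes as labelled (KO, knockout; WT, wild type; act, activin A; SB, SB431542) and the group mean as a line. Psma8 and Psmd3 are higher, and Psmd14 lower, in the 4 libraries labelled KO act and WT SB than in the other 4.

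Psmd3, a scaffold subunit of the lid, had 202 and 196 RPKM in knockout and 155 and 145 RPKM in wild-type libraries with activin A (0.41 ± 0.11, adjusted p = 0.0512 in limma, not called). With SB431542 it had 162 and 149 RPKM in libraries labelled knockout, against 203 and 202 RPKM in those labelled wild type (-0.38 ± 0.11, adjusted p = 0.064). Psmd14, the deubiquitinase of the lid, had the opposite order: 135 and 142 RPKM in knockout and 178 and 183 RPKM in wild-type libraries with activin A (-0.38 ± 0.11, adjusted p = 0.0694 in limma). In the libraries labelled knockout with SB431542 it had 191 and 168 RPKM, against 141 and 147 RPKM in those labelled wild type.

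None of the 3 catalytic subunit genes passed in either genotype contrast. Psmb5 had 107 and 133 RPKM in knockout and 144 and 147 RPKM in wild-type libraries with activin A (-0.29 ± 0.19, adjusted p = 0.388 in limma). Psmb6 had 428 and 516 RPKM in knockout and 327 and 401 RPKM in wild-type libraries (0.37 ± 0.16, adjusted p = 0.181). Psmb7 had 309 and 382 RPKM in knockout and 339 and 376 RPKM in wild-type libraries, so the groups overlapped. The activator genes varied most between replicates: Psme2 and Psme2b summed to 35.3 and 57.3 RPKM in knockout and to 47.0 and 77.7 RPKM in wild-type libraries with activin A. Psmg4, lower in the other tables, had 25.7 and 34.9 RPKM in knockout and 41.8 and 31.3 RPKM in wild-type libraries with activin A, overlapping groups that did not pass. With SB431542 it had 54.4 and 41.1 RPKM in libraries labelled knockout, against 23.7 and 32.8 RPKM in those labelled wild type. These groups did not overlap but were not called. The difference between both genotype contrasts was called for Psmg4 (-1.005 ± 0.32, adjusted p = 0.0482 in limma), though not under every processing.

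Core and regulatory genes were set beside each other in each comparison. After arsenite, the median log2 fold change was -0.015 for 15 core genes (5 higher, 6 lower) and -0.02 for 26 regulatory genes (7 higher, 6 lower). The interquartile range of the core genes ran from -0.32 to 0.15 and that of the regulatory genes from -0.12 to 0.18. The mean log2 level of core minus regulatory genes was 0.71 and 0.70 in arsenite libraries and 0.82 and 0.80 in untreated libraries, so the groups did not overlap. Groups also did not overlap for 84.5% of all single genes tested. The core mean includes Psmb5, which had the largest fall of the core genes (-0.87). In the Pml table the medians were -0.04 for core and -0.06 for regulatory genes, and the difference of mean levels overlapped, at 1.25 and 1.21 in knockout and 1.22 and 1.30 in wild type.

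In the Trim33 table the core median was -0.12 and the regulatory median 0.00 with activin A. With SB431542 they were 0.12 and 0.05 for the labelled genotypes. The core median was -0.21 with TMM scaling and ran from -0.21 to 0.02 when 1 library was left out with activin A, turning in sign without the first knockout library. With SB431542 it was 0.19 with TMM scaling and ran from 0.02 to 0.29, and the regulatory median turned to -0.03 without the first library labelled wild type. With activin A the regulatory median ran from -0.08 to 0.06. Core minus regulatory mean levels overlapped in both: 0.83 and 0.93 in knockout and 0.89 and 0.86 in wild-type libraries with activin A, and, with SB431542, 1.02 and 0.78 in libraries labelled knockout and 0.83 and 0.97 in those labelled wild type. Leaving Psmc3ip and the chaperones out of the regulatory class moved its medians by little, to -0.03 after arsenite and to -0.05 in the Pml knockout.

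**Figure D5:**
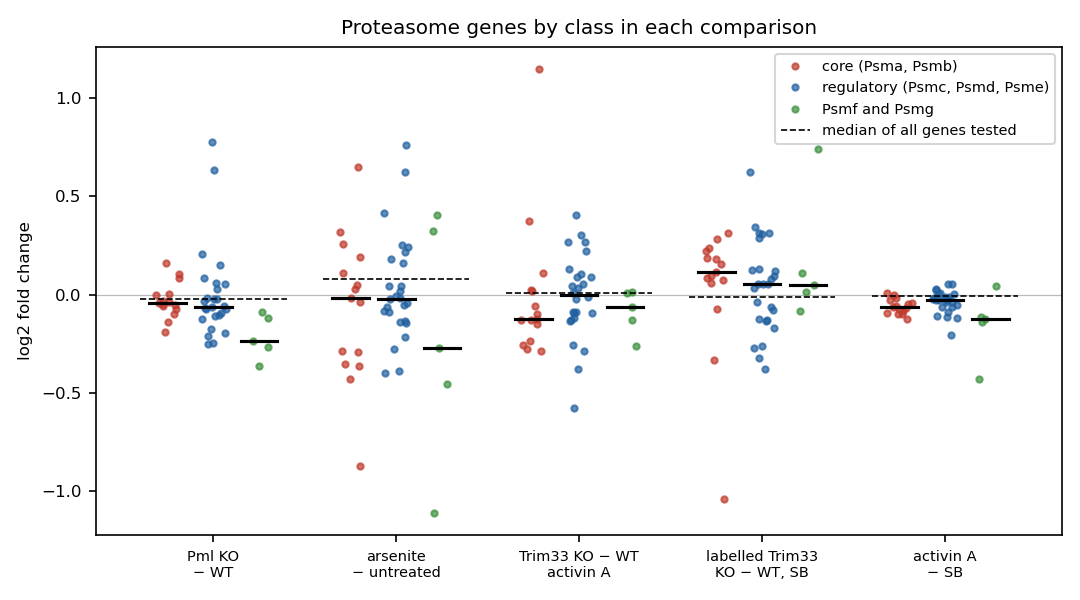
Log2 fold changes of core (red), regulatory (blue) and the Psmf and Psmg genes (green) in 5 comparisons, 1 point per gene; short black lines are class medians and dashed lines the median of all genes tested. The spread is widest after arsenite, while the class medians of core and regulatory genes stay between -0.12 and 0.12 in all 5.

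Across the Pml and arsenite tables, which share no library, 6 members were called in both, 54.5% of the 11 called in the Pml knockout and 20.7% of the 29 called after arsenite. Over all 11162 genes tested in both, the shares were 74.4% of those called in the Pml knockout and 38.2% of those called after arsenite, so the overlap among members was not larger than among all genes. Psmd7 and Psmg4 fell and Psme2b rose in both. Psmc3, Psmf1 and Psmg2 fell in the Pml knockout and rose after arsenite; with TMM-scaled values the rise of Psmc3 no longer passed. The Pml calls of Psmc3 and Psmf1 were each lost without either knockout library, that of Psmc3 also with quantile normalization, and that of Psmf1 also without the second wild-type library or the filter. The Pml call of Psmd7 was lost without the first knockout library. Psmg4 was thus lower in both comparisons, by 0.36 in the Pml knockout and by 1.11 after arsenite.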

How the data were processed

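RNA was sequenced with an Illumina TruSeq kit, per the labels' protocols. Tools listed in the submitters' processing notes are Bowtie2 2.3.3, featureCounts 2.0.1, SAMtools 1.9, FastQC 0.11.5 and DESeq2, with the build mm10; their roles and any use of strand are not given in the sources used here. In the files, the authors deposited the Pml table as FPKM and the arsenite table as RPKM (reads per length and library size), under those names. The deposited Trim33 table names no unit; its values fell on whole reads as RPKM values do and were read as RPKM. Whole reads within 0.05 were found for 45.3% to 62.8% of low values (under 20 reads) of single-exon genes in the RPKM tables, and for 16.7% to 18.8% in the Pml table.

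From these values, log2(value + 1) was fitted with limma 3.58.1 in R 4.3.3 (intensity trend, two-sided, Benjamini-Hochberg over all genes tested, call at adjusted p under 0.05). This scale understates changes of low genes. The filter kept genes reaching 1 in 2 or more libraries; 27 names turned into dates were dropped from each table. Tables were fitted alone: Pml and arsenite with 2 residual degrees of freedom each, Trim33 as 4 group means with 4. No count test was run, since no table holds counts. The fit was tested on simulated data. Changes of 1.2-fold were recovered in 33.4% of cases for arsenite, 23% for Pml and 0.2% for Trim33 with activin A. Changes of 1.5-fold were recovered in 96.4%, 96% and 13.8%. False calls made up 6.15%, 5.24% and 4.5% of calls. A gene that did not pass may therefore still have changed by a small amount, and in the Trim33 table by a larger one. TMM factors were computed without weights.

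Columns were matched by name; the untreated columns have a different letter from the sample titles and were read as that group. The labels tie replicate numbers to no shared batch or culture, and they were not used as pairs. Named genes are members called with the largest changes, the member with the smallest p of each class, the catalytic subunits, members under the filter or against their class, up to 4 called genes per related list, and the targeted genes; Psmd3, Psmd14, the ES cell markers of the Trim33 table and the members named as not passing were chosen after their values were seen. The members and lists were chosen with earlier results of these data known. Shared 50-base words and exons come from GENCODE transcripts of GRCm38, and promoters from RefSeq. Figures were drawn with matplotlib 3.10.9. A result for 1 related list is not reported here.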

Additional observations from a re-analysis of the deposited data

Results flagged for a closer look

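For 9 genes the genotype contrast (labelled knockout minus labelled wild type) differed between activin A and SB431542 by the limma test of that difference itself, with Benjamini-Hochberg adjustment over all genes; of all genes 26.3% were called in this test. Because Trim33 went against the labels with SB431542, the meaning of each value, and not only its sign, rests on labels that it contradicts. Taken by Trim33 level, each value adds the low-against-high contrasts of both treatments. It is then not a difference between activin A and SB431542. Psma8 differed most among members, by 2.19 ± 0.30 on the log2 scale (SE, adjusted p = 0.00154). Psmd3 differed by 0.79 ± 0.15 (adjusted p = 0.00717) and Psmd14 by -0.69 ± 0.16 (adjusted p = 0.014). The ATPase gene Psmc6 differed by -0.60 ± 0.16 (adjusted p = 0.0225), the lid gene Psmd12 by 0.54 ± 0.15 (adjusted p = 0.0302) and the activator gene Psme3 by 0.57 ± 0.16 (adjusted p = 0.0338). The catalytic subunit gene Psmb6 differed by 0.71 ± 0.23 and the chaperone gene Psmg4 by -1.005 ± 0.32 (adjusted p = 0.0482 each). The immunoproteasome gene Psmb8 differed by -2.05 ± 0.44 (adjusted p = 0.0105), with 0.754 and 0.698 RPKM in knockout and 2.02 and 2.38 RPKM in wild-type libraries with activin A. Only the calls of Psma8 and Psmd3 among the 8 members held under every other processing tried.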

How the results depend on the processing

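Calls rest on 2 libraries a group. After arsenite TMM scaling gave 7 members higher and 30 lower, a members' median of -0.187 (core -0.187, regulatory -0.184) and Psma7 at -0.062; the quantile-normalised median was 0.033. Without the filter, 1 member rose and 5 fell in the Pml knockout, and the quantile-normalised median was -0.023; leaving out 1 library gave 2 to 6 higher, 4 to 8 lower and medians of -0.088 to -0.022. With activin A the median with TMM was -0.141 (regulatory -0.084). Quantile normalization gave 3 higher and 1 lower, the 4 libraries alone 2 and 1, the replicate block 2 higher, and leaving out 1 library 0 to 1 higher with medians of -0.14 to 0.03. With SB431542 none was lower without the filter, 1 was higher with TMM (regulatory 0.129), 2 were lower with quantile normalization, and the replicate block gave 1 higher and 2 lower; leaving out 1 library gave 0 to 1 lower with medians of 0 to 0.171. For the difference of genotype contrasts TMM gave 2 higher and 5 lower with a median of -0.3 (core -0.396, regulatory -0.241), and leaving out 1 library 2 to 3 higher, 0 to 4 lower and medians of -0.217 to -0.058. TMM also took the share of higher genes among all called genes to 52.4% with activin A (70.1% unscaled), 45.9% with SB431542 (31.5%) and 46% for the difference (61.5%). The cause of these shifts was not tested. The replicate block lost the Psmg4 call in that difference and no other member call. Deviations of same-numbered libraries correlated over all genes at 0.023 in the Pml table and at -0.036 by column number in the arsenite table. In the Trim33 table they correlated at 0.602, 0.368, 0.207 and 0.191 for 4 pairs of groups and at -0.137 and -0.14 for the other 2, so not every pair deviated together. The first was knockout with activin A and labelled wild type with SB431542 (members 0.909). The second was wild type with activin A and labelled knockout with SB431542 (members 0.597). The fit took libraries as independent. The standard error may thus be too small for the difference of genotype contrasts and too large for activin A against SB431542. The replicate block was not run for arsenite, since the numbers of the untreated columns are not tied to samples by the labels. Summing Psme2 and Psme2b was added after seeing the data. Without counts in the Pml table its depth limit is unknown.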

Other observations

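In the Pml knockout, 3 of 15 proteasome-bound factors fell and 2 rose, a share near the 35.5% of all genes called in that comparison. The ubiquitin receptor gene Adrm1 had 155 and 151 FPKM in knockout and 182 and 172 FPKM in wild-type libraries (-0.21 ± 0.05, limma adjusted p = 0.0112). The proteasome deubiquitinase gene Usp14 had 41.5 and 42.5 FPKM in knockout and 48.1 and 53.2 FPKM in wild type (-0.26 ± 0.06, adjusted p = 0.0119 in limma). In Trim33 knockout cells with activin A, Usp14 had 46.0 and 39.5 RPKM and wild-type cells had 65.2 and 59.1 RPKM (-0.53 ± 0.14, adjusted p = 0.0494 in limma). The ubiquitin-activating enzyme gene Uba1 had 281 and 217 RPKM in these knockout libraries and 154 and 138 RPKM in wild type (0.76 ± 0.19, adjusted p = 0.0405 in limma). Of all genes 9.43% were called in this contrast. With SB431542, libraries labelled knockout had 66.4 and 58.9 RPKM of Usp14 and 144 and 145 RPKM of Uba1. Those labelled wild type had 46.4 and 38.4 RPKM of Usp14 and 277 and 191 RPKM of Uba1. Neither call was checked under other processing.

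Over the 46 tested members the arsenite log2 fold change had a Spearman correlation of 0.22 with transcript length, 0.15 with exon number and -0.28 with the untreated level. These are descriptions across genes of the same 4 libraries, and genes are not independent replicates.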
